A study of Mus musculus with 6 samples.

Results

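Transcripts of 10 effector cytokines of T cells were examined in RNA sequencing libraries of mouse T cells after co-culture with ID8 ovarian cancer cells. The members were the rows of the deposited gene table with the symbols Ifng, Tnf, Il2, Il4, Il5, Il13, Il10, Il17a, Csf2 and Il3, and all 10 were found among its 54532 genes. The cisplatin group had 3 libraries, from T cells that met ID8 cells pretreated with 40 µM cisplatin. The control group had 3 libraries, from T cells that met ID8 cells given PBS, and the letters WT in its labels stand beside that treatment only. In both groups, T cells were isolated from spleens of C57BL/6 mice 6 to 8 weeks old, kept in medium with IL-2 and pre-activated with anti-CD3/CD28 beads before they met the tumour cells. ID8 is a mouse ovarian cancer cell line. The labels do not say whether libraries of a group came from separate mice or cultures, so the p-values measure the spread between these libraries, which may be technical.

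Effector cytokines are secreted proteins through which an activated T cell acts on other cells. T helper 1 and CD8+ T cells are known for interferon gamma (Ifng) and tumour necrosis factor (Tnf), T helper 2 cells for interleukins 4, 5 and 13, and T helper 17 cells for interleukin 17A, while interleukin 2 drives T-cell division and interleukin 10 restrains inflammation. Their genes are nearly silent at rest and are switched on briefly after the T-cell receptor is engaged, by NFAT, AP-1 and NF-κB factors. Il4, Il13, Il5, Csf2 and Il3 lie close together, and these 5 members were found between 53602982 and 54267277 on chromosome 11 of GRCm38, a span of 664 kb.

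The cytokine transcripts were rare in every library. The table gives FPKM, the number of fragments scaled to gene length and library size, and each value could be turned back into a whole number of reads. The 10 genes together took 460 to 487 reads in each cisplatin library and 288 to 356 in each control library, or 14.3 to 15.8 and 9.41 to 11.6 RPM, the reads scaled to all reads on genes. Tnf and Il10 made up 63.4% to 77.2% of the summed FPKM of the members. Averaged over the 6 libraries, 8 of the 10 stood below 1 FPKM, and Csf2 was just below it at 0.997 FPKM. In the cisplatin libraries the order was Tnf (4.76 ± 0.413 FPKM, SD, n = 3), Il10 (2.26 ± 0.427), Csf2 (1.40 ± 0.213), Ifng (0.747 ± 0.291), Il4 (0.543 ± 0.237), Il17a (0.393 ± 0.217), Il2 (0.286 ± 0.0845), Il13 (0.0841 ± 0.0879) and Il5 (0.0265 ± 0.0111). There, the ranges of Ifng and Il4, of Il4 and Il17a, of Il17a and Il2 and of Il13 and Il5 overlapped, and the other neighbours did not. In the control libraries Il4 (0.675 ± 0.194 FPKM, SD, n = 3) stood next after Il10, ahead of Csf2 (0.592 ± 0.195), and the ranges of these genes overlapped, as did those of Tnf and Il10. Below them came Ifng (0.247 ± 0.0390), Il13 (0.212 ± 0.180), Il5 (0.115 ± 0.119), Il17a (0.114 ± 0.151) and Il2 (0.0859 ± 0.0983), with ranges that overlapped from each to the next. Il3, which encodes a growth factor of mast cells and basophils, had 0 reads in all 6 libraries, which allows at most 0.0933 to 0.0980 RPM by counting error alone.

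**Figure D1:**
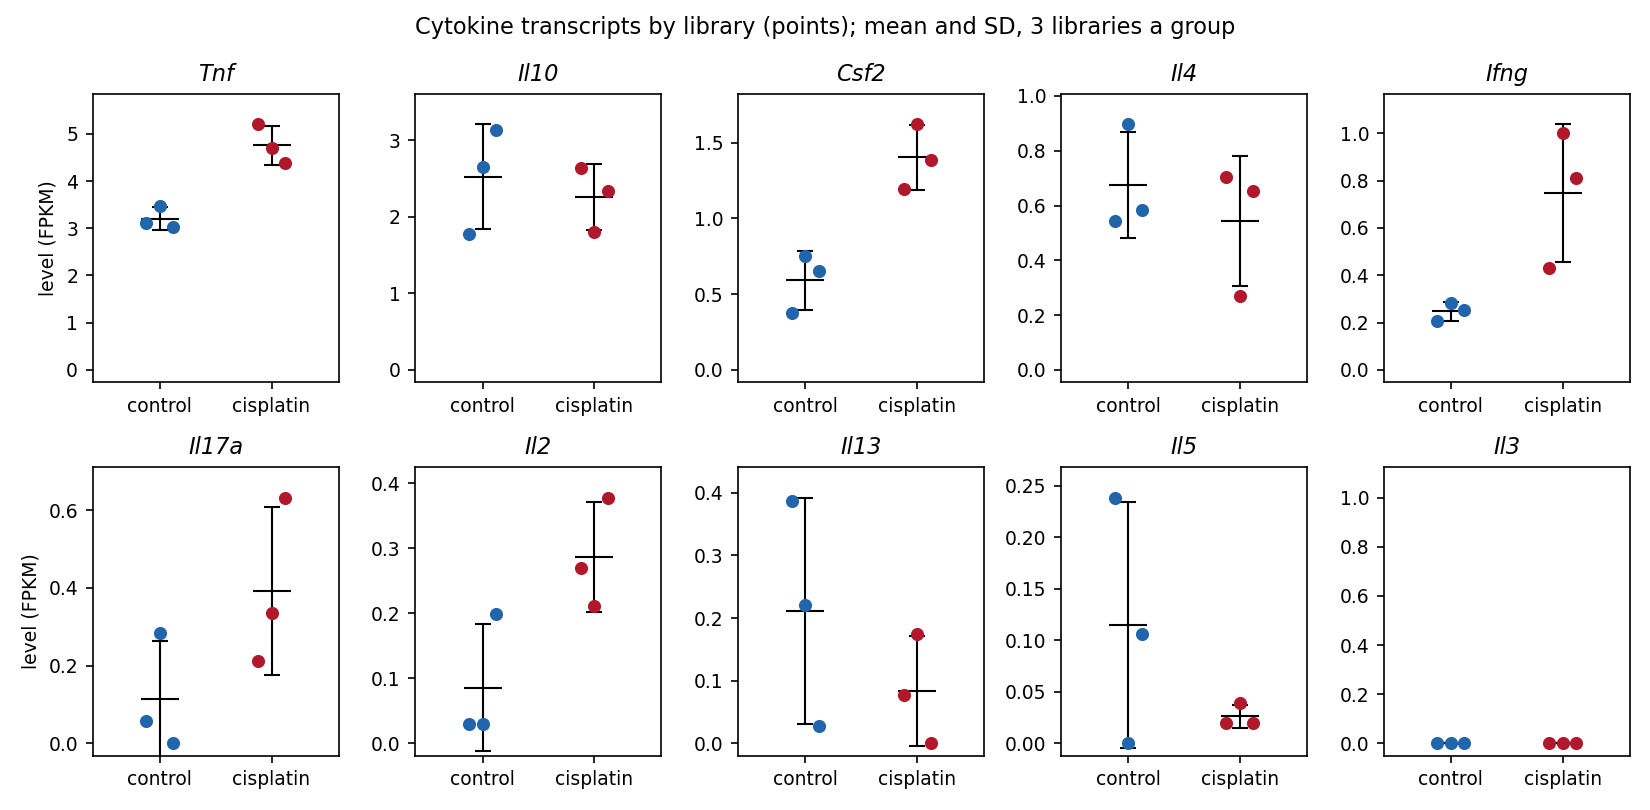
Level of each cytokine transcript in FPKM (vertical axes, each on its own scale) in the 3 control and 3 cisplatin libraries; points are libraries, horizontal bars means and error bars SD. Tnf, Csf2, Ifng and Il2 show every cisplatin library above every control library on the deposited scale, while Il10, Il4, Il17a, Il13 and Il5 overlap and Il3 is at 0. Against the T-cell genes, on the log2 scale with the pseudocount, the groups overlap for Tnf, Ifng and Il2.

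The libraries were of like depth, with 30606569 to 32169496 rebuilt reads on genes. Of the labelled cell type, all 22 identity genes were expressed, and all 22 were higher in the cisplatin libraries at an adjusted p under 0.05 by limma (median log2 fold change 0.60, against 0.028 over the 15874 tested genes). Their geometric mean was 102 FPKM with cisplatin and 68.2 FPKM in control, a ratio of 1.49. Other cells were present too: the summed FPKM of 18 ID8 tumour-cell markers was 222 to 229 in the cisplatin and 1510 to 1582 in the control libraries, and that of 10 B-cell markers 3652 to 3724 and 1710 to 1798. Most of the B-cell sum was Ighm, with means of 3220 and 1433 FPKM. The median log2 fold change of the B-cell markers was 0.60, as for the T-cell genes. In such bulk libraries, fewer cells of a type and less RNA per cell cannot be told apart. For this reason each cytokine is given on the deposited scale and against the T-cell genes of the same library, as the difference of log2(FPKM + 0.1) from their mean. The percent of the T-cell genes' geometric mean FPKM, with no pseudocount, and the ratio of summed reads were added after the data were seen.

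The comparison asked how pretreatment of the tumour cells with cisplatin moved the cytokine transcripts of the co-cultured T cells. Csf2 and Tnf were higher in the cisplatin libraries on the deposited scale, and neither passed the test against the T-cell genes, where Tnf differed by -0.022 on the log2 scale. Ifng, Il2 and Il17a, which were rarer, had higher means with cisplatin, whereas the type 2 cytokines Il4, Il5 and Il13, and Il10, had lower means. Only Tnf, Il10, Csf2 and Il4 passed the filter of a mean of at least 0.5 FPKM. Ifng missed it narrowly, at 0.497 FPKM against 0.609 FPKM for Il4.

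By limma, with Benjamini-Hochberg adjustment over all 15874 tested genes, 1 member (Csf2) was called higher, which needed an adjusted p under 0.05 and a 2-fold change, as were 4.11% of all tested genes. Without the fold minimum, 2 members (Csf2 and Tnf) were higher, as were 27.5% of all tested genes. In the same limma fit 0 members were lower, also 0 at an unadjusted p under 0.05 and 0 by voom, against 29% of all tested genes lower and 12.8% called lower. With a mean of at least 0.1 FPKM, 8 members were tested, 2 were called higher (Csf2 and Ifng, against 3.64% of 22369 genes) and 3 were higher at the adjusted p (19.5%), while 0 were lower (22.1%, and 11% called lower). With every gene that had a read, 9 members were tested, 1 was called higher (Csf2, against 2.26% of 33456 genes), 2 were higher (12%) and 0 were lower (14.3%, and 7.31% called lower). By voom on rebuilt reads, 6 members were tested, 3 were called higher (Csf2, Ifng and Il17a, against 6.08% of 18541 genes), 4 were higher (31.7%) and 0 were lower (25.6%, and 13.1% called lower). Centred on the T-cell genes, 0 of the 4 members were higher, also 0 at an unadjusted p under 0.05 by limma (4.71% of all tested genes were higher and 0.882% called higher), and 1 (Il10) was lower, where 66.2% were lower and 23.7% called lower. On deposited FPKM the groups did not overlap for 4 of the 9 members with reads (Tnf, Csf2, Ifng and Il2, all higher), against 17.7% of all genes with a read higher and 19.8% lower. Among genes of at least 0.5 FPKM these shares were 31.9% and 32.3%. Members of low level entered some of these fits only through the group where they were high, so the counts are descriptions.

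Tnf (ENSMUSG00000024401, chromosome 17 from 35199381 to 35202007), the inflammatory cytokine that signals through 2 receptors on most cells, had 5.20, 4.69 and 4.39 FPKM in the cisplatin libraries and 3.11, 3.48 and 3.02 FPKM in the control libraries. The groups did not overlap, and the spread within each was small. By limma the log2 difference was 0.56 (SE 0.093, 95% interval 0.33 to 0.78) at an adjusted p of 0.00219, on 764 and 476 reads. As a percent of the geometric mean FPKM of the T-cell genes, Tnf stood at 5.20, 4.56 and 4.28% with cisplatin and 4.67, 5.09 and 4.35% in control, and the groups overlapped. The transcript thus differed between the groups on the deposited scale and not detectably against the T-cell genes, where limma gave a log2 difference of -0.022 (95% interval -0.26 to 0.22) at an adjusted p of 0.860.

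Csf2 (ENSMUSG00000018916, chromosome 11 from 54247271 to 54249667) encodes GM-CSF, a growth factor of macrophages and granulocytes. It had 1.20, 1.62 and 1.39 FPKM with cisplatin and 0.375, 0.750 and 0.652 FPKM in control, from 31, 43 and 36 reads and 9, 18 and 16 reads. Control replicate 1 was the lowest library, and without it the log2 difference was 0.90 and Csf2 was no longer called at 2-fold, nor was it with a pseudocount of 1. With all libraries limma gave 1.15 (SE 0.27, 95% interval 0.49 to 1.81) at an adjusted p of 0.0108. Relative to the T-cell genes, Csf2 stood at 0.866 ± 0.275% in control and 1.38 ± 0.191% with cisplatin (SD, n = 3 each), with no overlap (two-sided exact permutation test, p = 0.1, the smallest that 3 against 3 can give). In the limma fit on that scale the log2 difference was 0.57, at an adjusted p of 0.0929. Gm12223, which overlaps Csf2 on the other strand, held 3 reads in all.

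Ifng (ENSMUSG00000055170, chromosome 10 from 118441046 to 118445892), the main macrophage-activating cytokine of T helper 1 and CD8+ cells, had 0.429, 1.002 and 0.810 FPKM with cisplatin and 0.206, 0.283 and 0.252 FPKM in control. These came from 18, 43 and 34 reads and from 8, 11 and 10 reads. Every cisplatin library lay above every control library, and cisplatin replicate 1 was the lowest of its group by a wide gap. With the filter lowered to 0.1 FPKM limma gave a log2 difference of 1.23 (SE 0.34) at an adjusted p of 0.0254, and Ifng was called higher. With every gene that had a read limma gave an adjusted p of 0.0536, and by voom the log2 difference was 1.57 at an adjusted p of 0.0175. Against the T-cell genes the log2 difference was 0.65 and the groups overlapped (two-sided exact permutation test, p = 0.2). With no pseudocount, as a percent of those genes, Ifng stood at 0.429, 0.974 and 0.790% with cisplatin and 0.309, 0.415 and 0.362% in control, where the groups did not overlap (p = 0.1 in the same exact test), so the separation depended on the pseudocount. The annotated gene AC153498.1 overlaps Ifng on the same strand and held 2 to 4 reads in each library.

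Il2 (ENSMUSG00000027720, chromosome 3 from 37120523 to 37125959) encodes the growth factor that the culture medium also supplied as protein. It had 10, 8 and 14 reads with cisplatin and 1, 1 and 7 reads in control, or 0.270, 0.211 and 0.378 FPKM and 0.0291, 0.0292 and 0.199 FPKM. Control replicate 3 alone came close to the cisplatin libraries. At the filter of 0.1 FPKM limma gave a log2 difference of 1.15 (SE 0.46) at an adjusted p of 0.0910, which did not pass. Relative to the T-cell genes the log2 difference was 0.58 and the groups overlapped (two-sided exact permutation test, p = 0.3). Adad1, which overlaps Il2 on the other strand, held 3 reads in all.

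Il17a (ENSMUSG00000025929, chromosome 1 from 20730905 to 20734496), the neutrophil-recruiting cytokine of T helper 17 and gamma delta T cells, had 8, 13 and 24 reads with cisplatin and 2, 10 and 0 reads in control. Control replicate 2 lay inside the cisplatin range. At the filter of 0.1 FPKM limma gave a log2 difference of 1.35 (SE 0.60) at an adjusted p of 0.123. By voom it was 2.56, at an adjusted p of 0.0241, under a filter of at least 10 reads in 3 libraries that Il17a met in cisplatin replicates 2 and 3 and control replicate 2. Relative to the T-cell genes the log2 difference was 0.77 and the groups overlapped (two-sided exact permutation test, p = 0.4).

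The type 2 cytokines had lower means with cisplatin, and none passed the test. Il4 (ENSMUSG00000000869, chromosome 11 from 53602982 to 53618669), which turns helper T cells towards the type 2 fate and B cells towards IgE, had 0.705, 0.271 and 0.654 FPKM with cisplatin and 0.543, 0.897 and 0.584 FPKM in control. The groups overlapped, with cisplatin replicate 2 the lowest of the 6. By limma the log2 difference was -0.32 (SE 0.40, 95% interval -1.27 to 0.63) at an adjusted p of 0.526, an interval that holds a 2-fold fall, and it was 0.036 without cisplatin replicate 2. On the scale of the T-cell genes Il4 stood at 0.535 ± 0.238% with cisplatin and 0.990 ± 0.281% in control (SD, n = 3 each), with no overlap (two-sided exact permutation test, p = 0.1), and limma gave a log2 difference of -0.90 there at an adjusted p of 0.0835. The FPKM of Il4 rests on a gene length of 1227 bases, while its principal transcript in GENCODE M21 has 590 bases.

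Il13 (ENSMUSG00000020383, chromosome 11 from 53631324 to 53634702), which acts on mucus and smooth muscle, had 3, 7 and 0 reads with cisplatin and 14, 8 and 1 reads in control. Il5 (ENSMUSG00000036117, chromosome 11 from 53720794 to 53725106), the growth factor of eosinophils, had 1, 2 and 1 reads with cisplatin and 11, 0 and 5 in control. Both overlapped between the groups, and in each the control libraries ranged from near 0 to the highest value of the 6. Fitted with all genes that had a read, limma gave a log2 difference of -0.68 for Il13, at an adjusted p of 0.502, and of -0.60 for Il5, at 0.448. Relative to the T-cell genes the log2 difference was -1.25 for Il13, with overlap (two-sided exact permutation test, p = 0.2), and -1.18 for Il5, without overlap (p = 0.1 in the same exact test). As a percent of those genes, with no pseudocount, the groups overlapped for Il5 too. Il4, Il13 and Il5 together held 32, 20 and 27 reads with cisplatin and 45, 41 and 28 reads in control.

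Il10 (ENSMUSG00000016529, chromosome 1 from 131019845 to 131024974), the cytokine that dampens antigen-presenting cells, had 2.64, 1.80 and 2.33 FPKM with cisplatin and 1.78, 2.65 and 3.13 FPKM in control. The groups overlapped, and control replicates 1 and 3 marked both the lowest and the highest value. By limma the log2 difference was -0.13 (SE 0.23, 95% interval -0.69 to 0.43) at an adjusted p of 0.656, and it turned to 0.063 after quantile normalization. Against the T-cell genes Il10 was 3.69 ± 0.932% in control and 2.22 ± 0.450% with cisplatin (SD, n = 3 each). The groups did not overlap but nearly met, with cisplatin replicate 1 at 2.64% and control replicate 1 at 2.67%. Against these genes limma gave a log2 difference of -0.71 at an adjusted p of 0.0256. The median of all tested genes on that scale was -0.55, and 66.2% of them were lower.

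Summed reads were compared with counting error alone. The ratio of summed RPM, cisplatin over control, was 3.68 for Il17a (95% exact interval 1.91 to 7.64), 3.49 for Il2 (1.63 to 8.31), 3.22 for Ifng (2.10 to 5.06), 2.51 for Csf2 (1.75 to 3.66) and 1.58 for Tnf (1.40 to 1.77). It was 0.945 for Il10 (0.802 to 1.11), 0.851 for Il4 (0.601 to 1.20), 0.427 for Il13 (0.181 to 0.932) and 0.245 for Il5 (0.0597 to 0.761). These intervals leave out the spread between libraries, which was wide for Il17a, Il2, Il13 and Il5. It exceeded counting error in other members too. Il10 had 70, 104 and 126 reads in control, and with cisplatin Ifng had 18, 43 and 34 and Il4 28, 11 and 26. The intervals are thus too narrow for these members as well. The 22 T-cell genes had a ratio of 1.58 on the same scale, as a geometric mean. In FPKM, the ratios of the single T-cell genes ran from 1.14 to 1.86. The lower ends of the intervals for Il2 and Csf2 are below 1.86, and that for Il17a, at 1.91, is close to it. The intervals are in RPM, however, where the T-cell genes had a higher ratio than in FPKM (1.58 against 1.49). The range of the single genes was not computed in RPM, so which intervals clear it was not settled. The comparison with 1.58 leaves out this spread between genes. The intervals of Ifng, Il2, Il17a and Csf2 lay above that value, that of Tnf held it, and those of Il10, Il4, Il13 and Il5 lay below it.

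**Figure D2:**
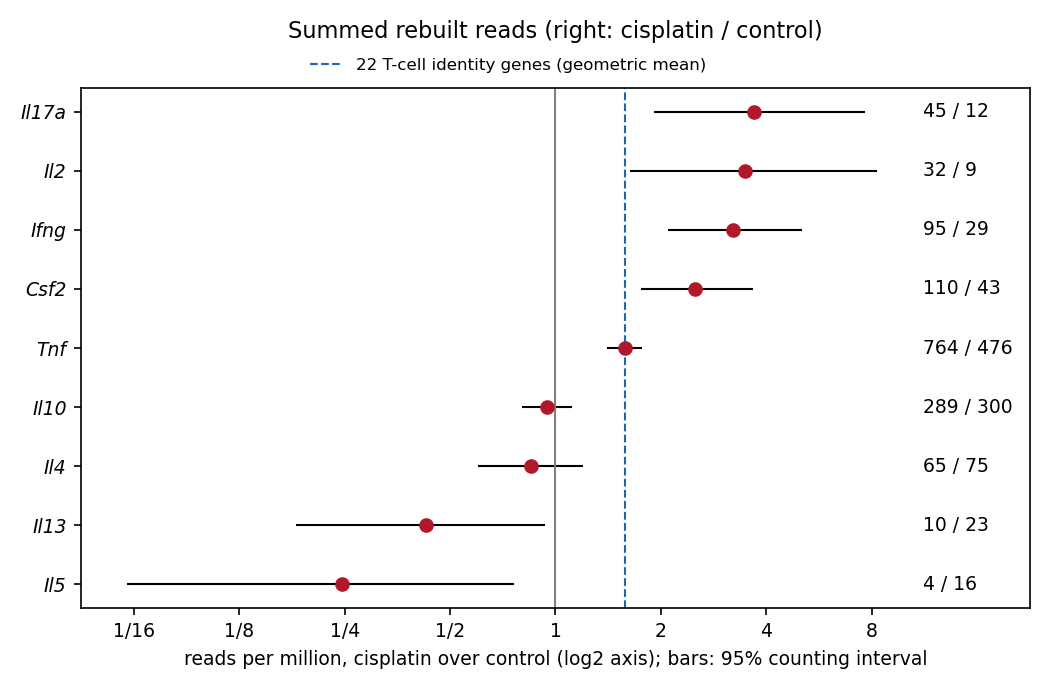
Ratio of summed RPM, reads scaled to all reads on genes, cisplatin over control (horizontal log2 axis), for the 9 cytokines with reads; points are ratios, bars 95% exact counting intervals, numbers at the right the summed reads, the grey line equality and the dashed line the T-cell identity genes at 1.58. Tnf sits on the dashed line, Csf2, Ifng, Il2 and Il17a to its right and Il10, Il4, Il13 and Il5 to its left. The dashed line is a geometric mean. In FPKM, where that mean was 1.49, the ratios of single T-cell genes ran from 1.14 to 1.86.

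**Figure D3:**
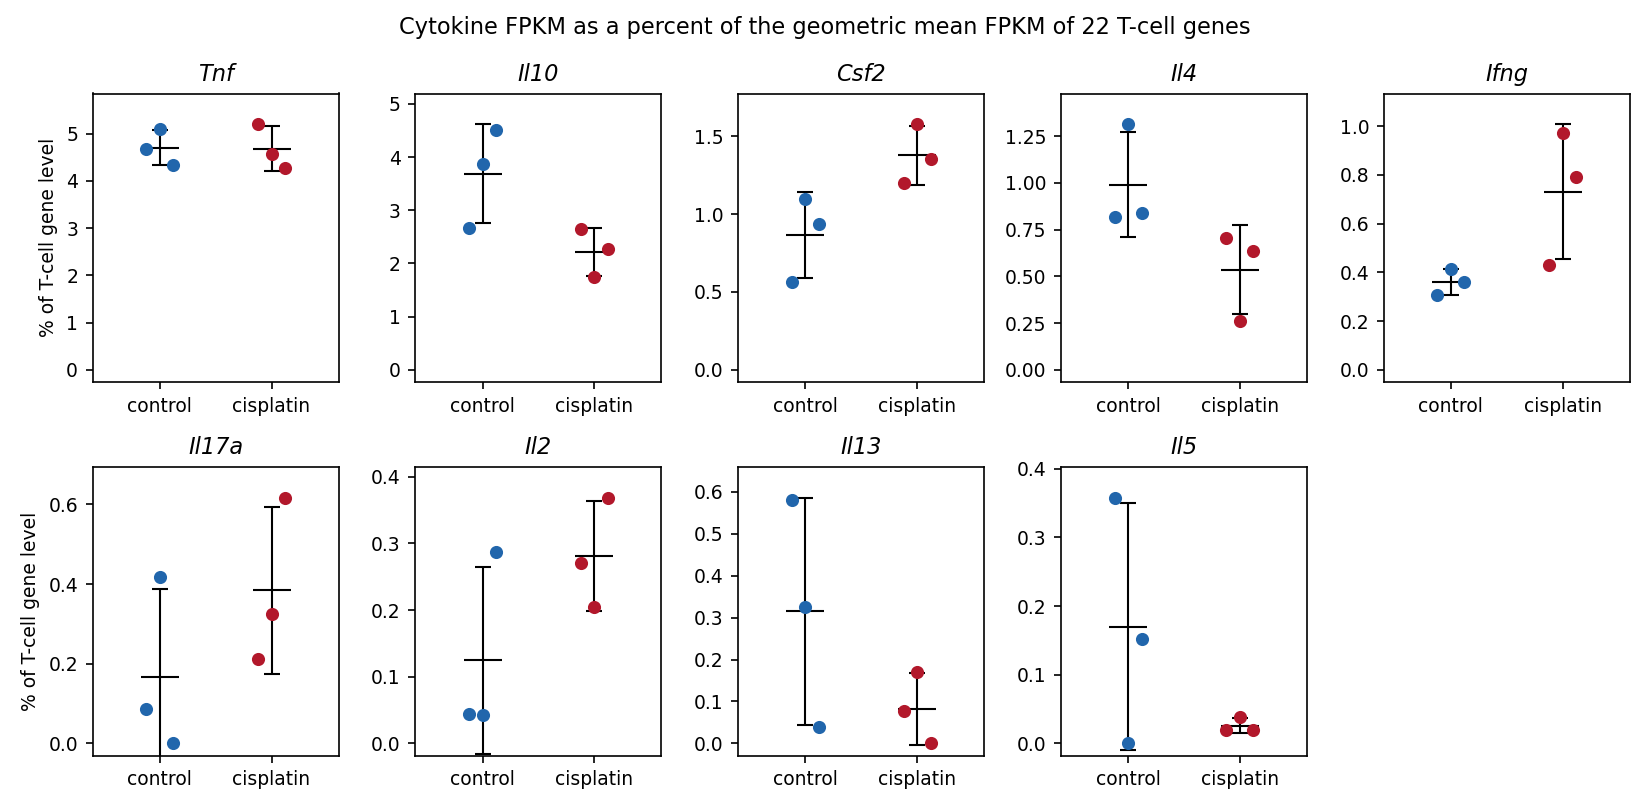
FPKM of each cytokine as a percent of the geometric mean FPKM of 22 T-cell identity genes in the same library (vertical axes, each on its own scale); points are libraries, horizontal bars means and error bars SD, n = 3 a group. Cisplatin libraries lie above control libraries for Csf2 and Ifng and below them for Il10 and Il4, and the groups overlap for Tnf, Il17a, Il2, Il13 and Il5. On the log2 scale with a pseudocount of 0.1, Ifng overlaps and Il5 does not.

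Promoter sequence was available for 9 of the 10 members, from RefSeq on GRCm38.p6. The 250 bases before the start are shown for the 4 members whose groups did not overlap and for Il4, the most abundant type 2 cytokine. Capitals mark matches on either strand to GGAAA (the core of NFAT sites), TGANTCA (AP-1), GATAA (the core of GATA sites) and TATAAA (the TATA box).
Tnf, chr17:35202008-35202257, minus strand: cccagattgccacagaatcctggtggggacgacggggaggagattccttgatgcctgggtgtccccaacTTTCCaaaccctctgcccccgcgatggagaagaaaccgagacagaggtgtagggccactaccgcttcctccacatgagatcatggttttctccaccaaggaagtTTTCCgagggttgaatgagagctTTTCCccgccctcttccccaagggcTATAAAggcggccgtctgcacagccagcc
Ifng, chr10:118440796-118441045, plus strand: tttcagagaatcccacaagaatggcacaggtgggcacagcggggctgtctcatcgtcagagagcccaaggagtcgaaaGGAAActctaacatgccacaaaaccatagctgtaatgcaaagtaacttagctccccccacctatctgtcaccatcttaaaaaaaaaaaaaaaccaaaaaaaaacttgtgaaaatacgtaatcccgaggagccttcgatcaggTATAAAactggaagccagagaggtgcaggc
Il2, chr3:37125955-37126204, minus strand: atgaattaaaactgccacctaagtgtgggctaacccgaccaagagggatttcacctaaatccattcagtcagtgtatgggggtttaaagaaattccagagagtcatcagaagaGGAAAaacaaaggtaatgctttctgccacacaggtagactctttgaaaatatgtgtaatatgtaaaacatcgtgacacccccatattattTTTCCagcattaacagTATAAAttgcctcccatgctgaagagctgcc
Csf2, chr11:54249900-54250149, minus strand: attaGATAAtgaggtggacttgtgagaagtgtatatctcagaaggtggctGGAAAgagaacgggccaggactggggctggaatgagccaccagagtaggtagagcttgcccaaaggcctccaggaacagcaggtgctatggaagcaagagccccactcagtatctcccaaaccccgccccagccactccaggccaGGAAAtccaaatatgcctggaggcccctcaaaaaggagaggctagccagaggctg
Il4, chr11:53618666-53618915, minus strand: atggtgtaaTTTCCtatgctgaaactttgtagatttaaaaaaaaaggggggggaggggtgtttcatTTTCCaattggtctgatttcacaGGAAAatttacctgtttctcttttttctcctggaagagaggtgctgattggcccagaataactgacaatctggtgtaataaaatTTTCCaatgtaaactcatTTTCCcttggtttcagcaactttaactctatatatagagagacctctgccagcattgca
TATAAA stood 24 to 31 bases before the start in Tnf, Ifng and Il2, as it did in Il17a and Il13, and 12.4% of 32851 mouse promoters of this length held it. GGAAA had 5 matches in the Il4 promoter shown (0 at a second RefSeq start of Il4), 3 in that of Tnf, 2 each in those of Il2 and Csf2 and 1 in that of Ifng, and was present in 55.6% of all promoters. TGANTCA was found in the Il17a promoter alone among the members (6.75% of all promoters), and GATAA in those of Csf2, Il13 and Il3 (22.6% of all promoters). In Il13 the 2 matches to TATAAA overlap each other. The Csf2 sequence lies before a RefSeq start 232 bases upstream of the gene start in the deposited table. The matches describe these letters only.

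Most receptors of the cytokines were more abundant than the cytokines, and all 19 were tested. At an adjusted p under 0.05 by limma, 9 were higher and 6 lower, with a median log2 fold change of 0.17 against 0.028 over all tested genes. Csf2rb, the chain shared by the receptors for GM-CSF, IL-3 and IL-5, and Csf2rb2, its IL-3-specific relative, were called higher, with log2 fold changes of 1.03 and 1.19. Csf2rb2 stood at 4.46 ± 0.284 FPKM in control and 10.3 ± 0.825 with cisplatin (SD, n = 3 each), and both were higher against the T-cell genes as well (0.45 and 0.61). The other chains for these cytokines, Csf2ra (14.9 FPKM with cisplatin and 13.1 in control), Il3ra (12.4 and 12.1) and Il5ra (1.44 and 0.994), did not pass the test on the deposited scale. Against the T-cell genes they were -0.39, -0.55 and -0.062. The myeloid and the mast-cell and basophil markers had median log2 fold changes of 0.31 and 0.36 against the T-cell genes. The part of such cells in Csf2rb and Csf2rb2 was not tested. Il13ra1, which pairs with Il4ra to bind IL-4 and IL-13, stood at 22.9 ± 0.860 FPKM in control and 3.75 ± 0.133 with cisplatin (SD, n = 3 each), a log2 difference of -2.58 at an adjusted p of 1.47e-07 by limma. Il13ra2, the decoy receptor of IL-13 (log2 fold change -1.83), Il17rc, a chain of the IL-17 receptor (-1.62), and Tnfrsf1a, the widely expressed TNF receptor (-1.22), were called lower as well. These 4 fell together with the ID8 tumour-cell markers, of which 12 of the 13 tested were lower, and the part of tumour-cell RNA in this difference was not tested.
Several receptor chains of lymphocytes were higher on the deposited scale. Il2ra, the activation-induced chain of the IL-2 receptor, had 23.6 ± 0.313 FPKM with cisplatin and 15.4 ± 0.136 FPKM in control (SD, n = 3 each), and its log2 difference of 0.61 was 0.032 against the T-cell genes. Il2rg, shared by the receptors for IL-2 and IL-4, had a log2 fold change of 0.74, Il2rb of 0.17 and Il4ra of 0.15, and the last pair were -0.41 and -0.43 against the T-cell genes. Of the interferon gamma receptor, Ifngr1 was higher (log2 fold change 0.84) and Ifngr2 lower (-0.46). Tnfrsf1b, the TNF receptor of T cells, was lower (-0.28), Il17ra and Il10rb were higher (0.41 and 0.29), and Il10ra did not pass the test (16.9 FPKM with cisplatin and 19.0 in control). After the shift to the T-cell genes, Il17ra and Il10rb were -0.17 and -0.29, and Il10ra was lower at -0.76 (adjusted p of 0.000123 by limma). The median of all tested genes after this shift was -0.55, and 66.2% of them were lower.

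Of 20 transcription factors that set T helper lineages and cytokine genes, 10 were higher and 5 lower at an adjusted p under 0.05 by limma (median log2 fold change 0.29). Foxp3, the factor of regulatory T cells, had 6.62 ± 0.147 FPKM with cisplatin and 2.64 ± 0.235 FPKM in control (SD, n = 3 each), and its log2 difference of 1.30 was 0.72 against the T-cell genes. Eomes, which works with T-bet at Ifng in CD8+ cells, had a log2 fold change of 1.05, and 0.48 against the T-cell genes. Both were called higher. Ahr (log2 fold change -1.71) and Nfil3 (-1.45) were called lower, and so was Maf, an activator of Il4 and Il10 (-1.08). Tbx21, encoding T-bet, the activator of Ifng, was higher by 0.59 on the log2 scale, and by 0.00998 against the T-cell genes. Gata3, the type 2 factor, had 7.70 FPKM with cisplatin and 6.98 in control and did not pass the test on the deposited scale. Against the T-cell genes Gata3 was lower by limma (-0.44, adjusted p of 0.000449), where the median of all tested genes was -0.55. Among 17 tested activation-induced factors of cytokine promoters, 8 were higher and 8 lower (median log2 fold change -0.0077), and Fosl2 (-2.48), Fos (-1.64) and Egr1 (-1.05) were called lower. Nfatc1 and Rel were higher (0.62 and 0.60), and 0.042 and 0.025 against the T-cell genes. The factors called lower moved with the ID8 markers as well, whose part was likewise not tested.

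Other secreted and surface cytokines of T cells were mostly higher. Of 20 listed, 14 were tested, 10 were higher and 1 lower at an adjusted p under 0.05 by limma, and the median log2 fold change was 0.65 against 0.60 for the T-cell genes. Ccl3, Ccl4 and Xcl1, chemokines released by activated CD8+ T cells and natural killer cells, were called higher, with log2 fold changes of 1.98, 1.78 and 1.84 that were 1.41, 1.20 and 1.26 against the T-cell genes. Ccl3 stood at 1.40 ± 0.234 FPKM in control and 6.03 ± 2.02 with cisplatin (SD, n = 3 each). Lif, a cytokine of the interleukin 6 family that many tissues make, was called lower (-1.49), as were the ID8 markers, whose part was not tested. Ltb, the lymphotoxin chain that stood highest of the list, had 402 FPKM with cisplatin and 226 FPKM in control. Il9, Il22 and Ccl1 had no read.

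Genes known to respond to the cytokines, in T cells or in other cells, were split. Of 22 interferon gamma targets, 11 were higher and 8 lower at an adjusted p under 0.05 by limma, with a median log2 fold change of 0.090. Irf1, an early target, had a log2 fold change of 0.42 (-0.16 against the T-cell genes) and Cxcl10, a chemokine, of -0.81. Nos2, the inducible nitric oxide synthase, was the 1 gene called, with 4.67 ± 0.288 FPKM with cisplatin and 32.4 ± 0.493 FPKM in control (SD, n = 3 each). Of 13 tested TNF targets, 8 were higher and 3 lower, and Ier3 (log2 fold change -2.83) and Tnfaip2 (-1.18) were called lower. Nos2, Ier3 and Tnfaip2 were lower in the same libraries as the ID8 tumour-cell markers (median log2 fold change -2.30, 12 of 13 tested lower), and the part of tumour-cell RNA in these values was not tested. Of 9 IL-2 and STAT5 targets, 3 were higher and 2 lower with none past 2-fold, and Gzmb, the granzyme of killer cells, had 152 and 142 FPKM (0.094 on the log2 scale, at an adjusted p of 0.118 by limma). Against the T-cell genes Gzmb was lower, at -0.48 (adjusted p of 1.66e-05 by limma). On that scale the median of all tested genes was -0.55 and 66.2% of them were lower. Of 11 genes known to respond to IL-4 and IL-13, mostly in myeloid and B cells, 7 were tested, 4 were higher and 2 lower at an adjusted p under 0.05 by limma. Ccl24, Mgl2 and Pdcd1lg2 were called higher (log2 fold changes 1.71, 1.34 and 1.06) and Fcer2a and Arg1 lower (-1.06 and -1.03). The part of other cells in these values was not tested.

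**Figure D4:**
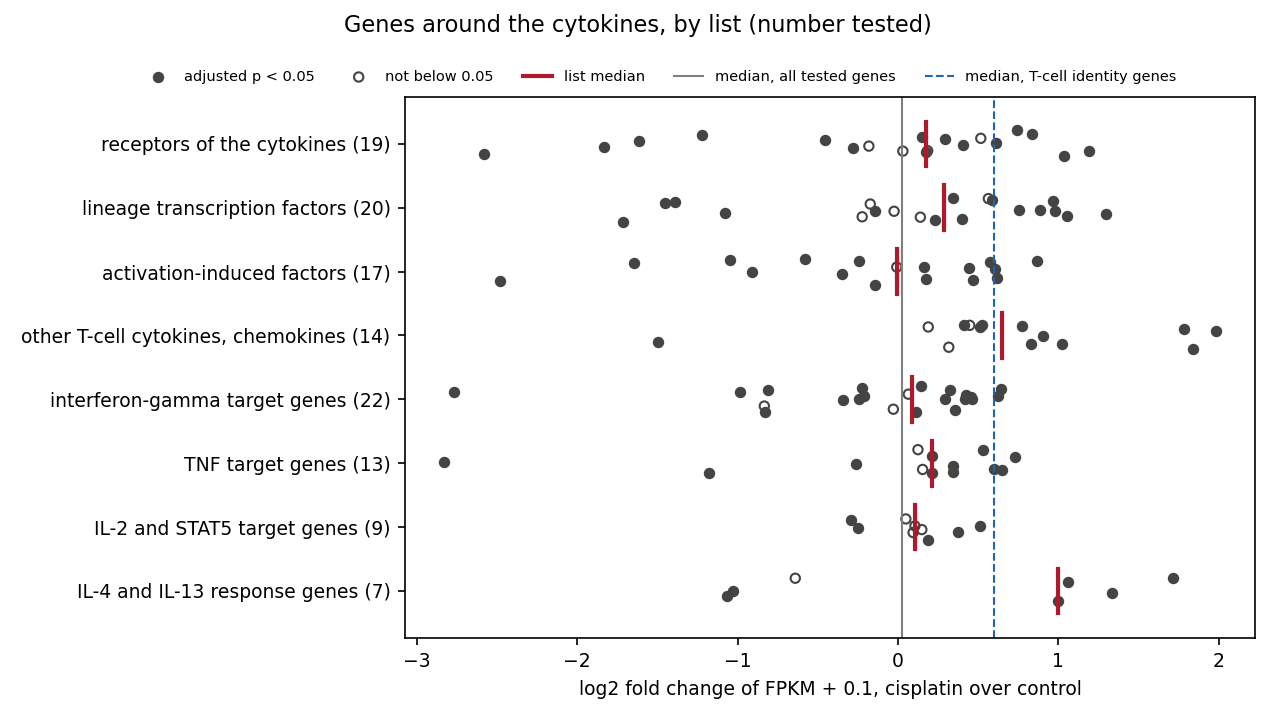
Log2 fold change of FPKM + 0.1, cisplatin over control (horizontal axis), of the tested genes of 8 lists around the cytokines; filled points passed an adjusted p of 0.05 by limma, red bars are list medians, the grey line the median of all tested genes (0.028) and the dashed line that of the T-cell identity genes (0.60). Most points lie left of the dashed line.

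Cell types other than T cells can make several of these cytokines. The T cells had been isolated with a pan T-cell kit, a selection meant to remove other splenocytes, yet markers of such cells were detected and differed between the groups. Of 8 tested mast-cell and basophil markers (12 listed, 1 without a read), sources of Il4, Il13 and Il3, 5 were higher and 1 lower, and the list summed to 34.0 to 37.2 FPKM with cisplatin and 19.3 to 22.8 in control. Cpa3, a mast-cell protease, had 17.2 and 6.08 FPKM and was the largest part of the sum with cisplatin. Kit was the 1 marker that was lower, at 4.84 FPKM with cisplatin and 8.03 in control. Of 9 tested myeloid markers (11 listed), sources of Tnf and Il10, 7 were higher and 1 lower. The list summed to 149 to 170 FPKM with cisplatin and 81.4 to 85.6 in control. Lyz2, at 89.7 and 30.8 FPKM, was the largest part of the sum. Cd14 was the marker that was lower, at 5.35 FPKM with cisplatin and 7.43 in control. Cd68 did not pass the test (24.2 and 24.1 FPKM). All 10 B-cell markers were higher, with Ighm at 3220.5 and 1433 FPKM. Their median log2 fold change was 0.60, and 0.020 against the T-cell genes. Of 8 tested natural killer and innate lymphoid markers (10 listed), 4 were higher and 1 lower, and the list summed to 30.2 to 30.5 FPKM with cisplatin and 23.9 to 24.6 in control. Ncr1, at 1.15 and 0.817 FPKM, did not pass the test (adjusted p of 0.220 by limma). Against the T-cell genes the median log2 fold change was 0.31 for the myeloid and 0.36 for the mast-cell and basophil markers. It was 0.046 for the natural killer and innate lymphoid markers. The part of these cells in the values of the cytokines, chemokines, receptors and response genes was not tested.

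Likeness of pattern was measured over the 6 libraries as the distance between centred log2 values, among 11172 protein-coding genes of at least 1 FPKM. Nearest to Tnf were Mst1 (distance 0.0966, 3.77 and 2.63 FPKM in the 2 groups) and Slc37a1 (0.105). Nearest to Csf2 were Zfp296 (0.363) and Zfp992 (0.377), with log2 fold changes of 1.01 and 0.97. Nearest to Il10 were Pctp (0.175) and Rpl36a-ps1 (0.182, a ribosomal gene copy that can share reads with its source), and nearest to Il4 were 1700056E22Rik (0.523) and Gm16253 (0.537). The points share libraries and groups, so these are descriptions.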

How the data were processed

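RNA sequencing libraries of T cells, 3 cisplatin and 3 control, were compared on the FPKM that the authors deposited per gene, with gene lengths. According to the methods, the authors removed poor reads and aligned and counted with LifeScope, while the submitters' processing notes name fastp, HISAT2 2.0.5, featureCounts 1.5.0-p3 and mm10. How these relate, the strand setting and the treatment of shared reads are not given in the sources used here. The table's coordinates equalled GENCODE M21 (GRCm38) for 53585 of 54495 shared genes.
Reads were rebuilt from FPKM and length (100% of values within 0.1 of a whole read). Log2(FPKM + 0.1) was fitted with limma 3.58.1 (lmFit, eBayes with trend) in R 4.3.3, which understates changes of low genes. Genes needed a mean of at least 0.5 FPKM, and calls an adjusted p under 0.05 and 2-fold, the study's thresholds. The steps were tested on simulated data in which only genes with more reads than most members were changed. That test does not cover genes as rare as most members. All members were named, with the 3 largest called rises and falls of each list (1 FPKM or more in either group), the receptors and, per tested member, the 2 genes nearest in pattern. Genes outside that rule (Il9, Il22, Ccl1, Tbx21, Gata3, Maf, Nfatc1, Rel, Ltb, Irf1, Cxcl10, Gzmb, Ncr1, Kit, Cd14, Cd68) were chosen after their values were seen. A gene that the rule names is not reported here. Alternatives were other pseudocounts, filters, normalizations, voom, treat, a replicate block and leaving out each library. Members and lists were chosen with earlier results of these data known. Figures used matplotlib 3.10.9, intervals scipy 1.17.1.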

Additional observations from a re-analysis of the deposited data

How the results depend on the processing

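The count of members called higher was 1 (Csf2). It was 0 with a pseudocount of 1, with a mean of at least 5 FPKM (where no member was left), centred on the T-cell genes, and by treat at 1.5-fold, 2 with a mean of at least 0.1 FPKM and 3 by voom, and 0 to 1 when 1 library was left out, 0 without control replicate 1. The count past the adjusted p and higher was 2. It was 0 at 5 FPKM, centred on the T-cell genes and by treat, and 4 by voom. The count lower became 1 (Il10) when centred. Centring moved the median of all tested genes to -0.55 and quantile normalization to 0.16. Relative to the median, Tnf was 0.53, 0.53 and 0.59 as deposited, centred and quantile-normalized, and Csf2 was 1.12, 1.12 and 1.14.
For Tnf the log2 fold change was -0.022 centred, reversed with an adjusted p of 0.860 from limma, and 0.56 by treat (adjusted p = 1 from limma). For Csf2 it was 0.57 centred and 1.15 by treat (adjusted p = 0.200 from limma). For Il10 it was 0.063 after quantile normalization and -0.71 centred, and without 1 library it ranged from -0.36 to 0.036, turning positive without cisplatin replicate 2 (0.014) and without control replicate 3 (0.036). For Il4 it ranged from -0.52 to 0.036 (0.036 without cisplatin replicate 2), for Csf2 from 0.90 to 1.32 and for Tnf from 0.49 to 0.62. For Il17a it was 2.56 by voom. The cause of these shifts was not tested. Against the T-cell genes, with a pseudocount of 1 in place of 0.1, the log2 differences were -0.097 for Ifng, -0.32 for Il2, -0.25 for Il17a and 0.027 for Csf2. A pseudocount near or above the level of a gene shrinks its log2 difference. That of 1 was above every value of Il2 and Il17a, while Csf2 had 1.20 to 1.62 FPKM with cisplatin. Without a pseudocount, a choice made after seeing the data, the log2 differences were 1.18 for Il2 and -2.71 for Il5. The groups then no longer overlapped for Ifng and overlapped for Il5. Genes of the 8 lists called higher numbered 6 with a pseudocount of 1, 3 at 5 FPKM, 17 after quantile normalization and 4 centred, against 11, and 8 to 13 when 1 library was left out.
Same-numbered libraries did not deviate together (r from -0.063 to 0.023 across genes), and with the replicate number as a replicate block 1 member was called higher and 2 passed the adjusted p, as without it. Il2, Il5, Il13 and Il17a rest on 4 to 45 reads a group, so only large differences could be detected in them.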
